A study of Mus musculus with 6 samples.

Results

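Transcripts of 10 mouse genes of the YAP and TEAD pathway were compared between AML12 cells given a static magnetic field (SMF) and AML12 cells with no treatment. The genes were taken by symbol: Yap1, Wwtr1, Tead1, Ctgf, Cyr61, Ankrd1, Amotl2, Lats2, Ajuba and Axl. All 10 were found among the 23886 Ensembl gene identifiers of the deposited tables, where annotation gives Ctgf and Cyr61 their newer symbols Ccn2 and Ccn1. AML12 is a hepatocyte line established from the liver of a mouse transgenic for human TGF alpha, so every library comes from a single line with that background. The exposed group held 3 libraries (SMF 1, 2 and 3) and the untreated group 3 libraries (Control 2, 3 and 4). SMF is the only treatment in the labels, which name no genotype, field strength or duration. Nothing in the labels says that replicates came from separate cultures, so p-values measure the spread between these libraries, which may be technical.

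YAP, the product of Yap1, and TAZ, the product of Wwtr1, are transcriptional coactivators that do not bind DNA themselves and act mainly through TEAD factors. The Hippo kinases LATS1 and LATS2 phosphorylate them, which keeps them in the cytoplasm and leads to their degradation. Cell density, cell shape, actin tension and soluble factors feed into this step, and in liver the pathway restrains organ growth, with more YAP in bile duct cells than in hepatocytes. Several targets act back on the pathway: LATS2 and angiomotin-like 2 restrain YAP and TAZ. Targets such as Ctgf, Cyr61 and Ankrd1 are widely used as readouts of YAP and TAZ activity.

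The values are FPKM, fragments per length of gene and per size of library, so levels can be compared between genes per length. For nearly all genes that length was all annotated exons together, not the length of the transcript expressed, so such comparisons are approximate. Library totals behind the FPKM were 15514530 to 17969397 reads in SMF libraries and 16601816 to 18200516 in controls, and 1 read in a gene of 1 kilobase was worth 0.0549 to 0.0645 FPKM. Each of the 10 genes had at least 278 reads in every library, the lowest being Lats2 in SMF 1 and the highest Axl in SMF 3 with 11045. The hepatocyte factor Hnf4a was at 91.4 ± 1.95 FPKM in SMF libraries and 91.6 ± 4.32 in controls (SD, n = 3 each). Albumin (Alb) was at 30.4 ± 2.8 FPKM in SMF libraries and 29.2 ± 4.33 in controls. Transthyretin (Ttr) was at 27.0 ± 5.34 and transferrin (Trf) at 71.6 ± 2.96 FPKM in SMF libraries, against 25.2 ± 9.66 and 67.6 ± 4.80 in controls. Apoa1, another hepatocyte marker, stayed under 1 FPKM in every library (0.178 to 0.585). The bile duct keratin Krt19 was abundant, at 1024 to 1163 FPKM over all libraries. Of the other bile duct markers, Krt7 was at 58.8 to 65.2 FPKM and Sox9 at 8.85 to 10.4 FPKM, while Epcam was listed at 0 in 5 of 6 libraries. Of the fibroblast markers, Col1a2 and Dcn were listed at 0 in all 6 libraries, while Col1a1 was at 0.808 to 1.18 FPKM and Des at 0.478 to 0.735 FPKM. The summed level of the endothelial markers Pecam1, Cdh5 and Tek was 0.0648 to 0.169 FPKM in SMF libraries and 0.0657 to 0.1 in controls. The summed hepatocyte list was at 3801 to 4007 FPKM in SMF libraries and 3627 to 3820 in controls. Most of this sum was Krt8 (1871 to 2088 FPKM over all libraries) and Krt18 (1524 to 1703 FPKM), so it says little about the other markers of the list. Afp and Krt8 were the 2 of 7 tested members whose groups did not overlap, both higher, against 11.0% of all genes. Afp was at 1.73 ± 0.2 FPKM in SMF libraries and 1.34 ± 0.17 in controls, and Krt8 at 2018 ± 61.8 FPKM in SMF libraries and 1921 ± 50.6 in controls. Their part in the results was not tested. The summed bile duct list was at 1094 to 1236 FPKM in SMF libraries and 1123 to 1147 in controls. The fibroblast and stellate list summed to 1.47 to 1.80 FPKM in SMF libraries and 1.43 to 1.92 in controls. The macrophage list summed to 1.23 to 1.44 FPKM in SMF libraries and 0.933 to 1.42 in controls. Nearly all of the macrophage sum was Csf1r (0.933 to 1.43 FPKM over all libraries), with Ptprc at 0 to 0.016 FPKM. In RNA from a whole culture, fewer cells that express a gene and less RNA per cell cannot be told apart.

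TEAD factors bind the letters GGAATG, and this core was looked for on both strands (as CATTCC on the other) of RefSeq promoter windows, 250 bases before to 50 after each gene's start (build GRCm38.p6). Of the 10 genes, 8 matched a listed window, while Ctgf and Tead1 matched none and were not searched. Each of the 8 held the core in at least 1 window, and 9 of 10 windows held it. The window without the core belongs to Lats2, whose other window holds it. The pair of Wwtr1 windows overlap and share a site. Among all 32851 mouse windows of this length, 14.7% held the core and 1.36% held it at least 2 times. These genes are known for their ties to YAP and TEAD and are not a random draw, so their share was not tested against that of all windows. A match of letters is not a measured binding site. Each site is given with 10 bases on either side, read in the GGAATG direction with the core in capitals, so that the flanks of regulators and targets can be compared.
Yap1 (chr9:8004722-8004747, minus strand): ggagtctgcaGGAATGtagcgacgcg
Wwtr1 (chr3:57576031-57576056, minus strand): taaactcaaaGGAATGcagataggcg
Cyr61 (chr3:145650073-145650098, plus strand): aaacatctcaGGAATGttggttggcg
Ankrd1 site 1 (chr19:36120039-36120064, minus strand): cactgccaaaGGAATGaccctctcac
Ankrd1 site 2 (chr19:36119952-36119977, minus strand): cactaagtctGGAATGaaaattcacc
Amotl2 (chr9:102717729-102717754, minus strand): tgctatgccaGGAATGtgagagtttc
Lats2 (chr14:57746104-57746129, minus strand): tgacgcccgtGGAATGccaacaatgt
Ajuba site 1 (chr14:54577832-54577857, plus strand): ggggcactgtGGAATGtatccatcaa
Ajuba site 2 (chr14:54577810-54577835, plus strand): gtttacagttGGAATGcgcggagggg
Axl (chr7:25788951-25788976, minus strand): aaattctacaGGAATGtttaccagac

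Counted from the gene's start, the core began at base -103 in Cyr61 and -65 in Amotl2, both on the strand opposite to the gene. Ankrd1 held it at bases -210 and -123 on the gene's own strand, and Ajuba at -186 and -164 on the opposite strand. In Lats2 it began at base 5, after the start. The 250 bases before the start are printed for Cyr61 and Ankrd1, as readout targets with a listed window.
Cyr61 (chr3:145649986-145650235, minus strand): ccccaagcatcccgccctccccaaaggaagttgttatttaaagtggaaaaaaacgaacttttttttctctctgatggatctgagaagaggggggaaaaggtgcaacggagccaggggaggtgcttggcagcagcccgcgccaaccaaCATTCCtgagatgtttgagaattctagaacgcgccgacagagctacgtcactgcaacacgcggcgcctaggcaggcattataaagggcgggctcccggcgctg
Ankrd1 (chr19:36119845-36120094, minus strand): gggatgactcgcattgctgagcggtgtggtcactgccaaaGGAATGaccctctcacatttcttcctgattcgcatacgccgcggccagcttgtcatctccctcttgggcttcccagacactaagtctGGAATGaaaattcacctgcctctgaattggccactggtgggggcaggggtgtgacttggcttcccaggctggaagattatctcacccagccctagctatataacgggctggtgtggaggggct

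Expression of the 10 genes differed little between SMF and control libraries. None passed limma on log2(FPKM + 1) after Benjamini-Hochberg adjustment over the 11114 genes tested (0 of 10, adjusted p = 0.245 to 0.968), and that test called 0% of all genes. Of the 10, 2 had an unadjusted limma p under 0.05, Ankrd1 higher and Tead1 lower, against 18.0% of all genes (9.41% higher and 8.57% lower). Only Ankrd1 had groups that did not overlap, 1 of 10 against 23.7% of all genes (11.0% higher and 12.7% lower). limma-voom on reads recovered from the FPKM called 0 of the 10, against 4.59% of all genes (2.18% higher and 2.41% lower). With a correction for GC content and gene length, limma-voom again called 0 of the 10, against 0.778% of all genes (0.543% higher and 0.235% lower). Of the 10 folds, 5 were above 0 and 5 below, with a median of -0.0003 on the log2(FPKM + 1) scale; over all genes 5189 were above and 5925 below, with a median of -0.0095. All folds below are on that scale, SMF minus control, unless limma-voom is named.

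**Figure D1:**
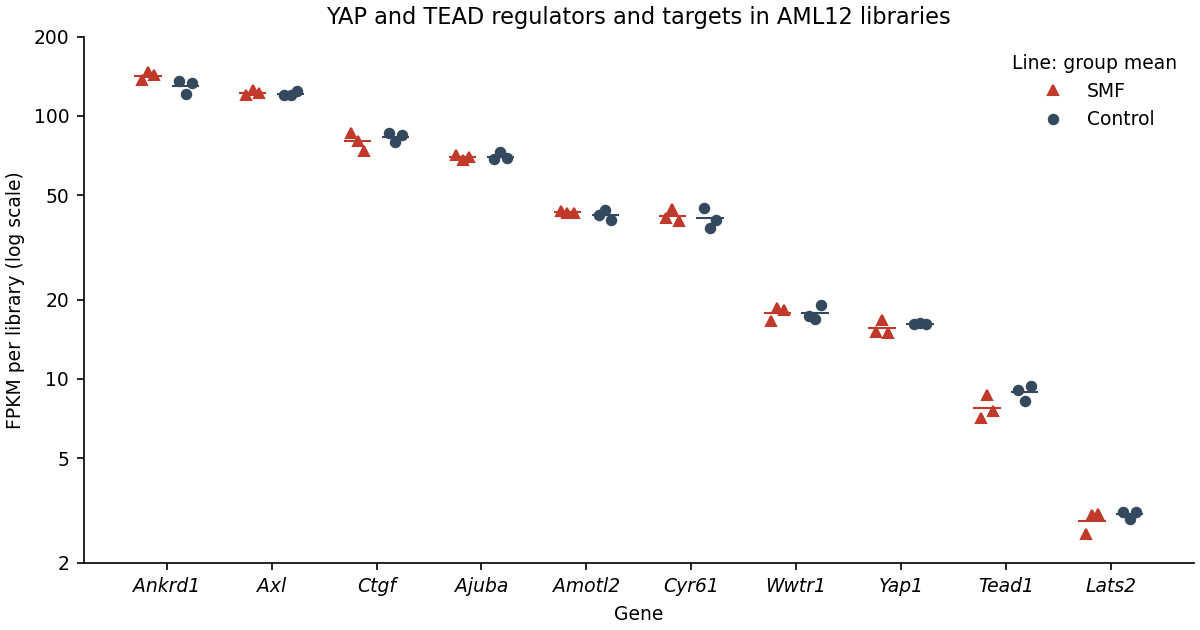
FPKM of the 10 genes on a log axis, 1 point per library, with SMF libraries as triangles, controls as circles and a line at each group mean. Levels run from 2.57 FPKM for Lats2 to 146 for Ankrd1, and only for Ankrd1 do all SMF points lie above all control points.

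The levels of the 10 genes spanned a wide range, and their order was nearly the same in every library. Ankrd1 had the highest mean over the 6 libraries at 136.3 FPKM, above 97.4% of the genes tested, followed by Axl (122 FPKM), Ctgf (81.8), Ajuba (69.9), Amotl2 (42.5) and Cyr61 (41.2). Wwtr1 (17.8), Yap1 (15.9), Tead1 (8.36) and Lats2 (2.98 FPKM) followed. Neighbours in this order kept their places in all 6 libraries with a single exception: Amotl2 was above Cyr61 in 4 of 6. The ranges of Ankrd1 and Axl, of Amotl2 and Cyr61, and of Wwtr1 and Yap1 overlapped between libraries. Within each library, Ankrd1 was still above Axl and Wwtr1 above Yap1, while Amotl2 and Cyr61 changed places. Among these 10 genes, the targets other than Lats2 were thus more abundant per length than the coactivators and Tead1. Targets outside the 10 need not follow this order: the tested genes listed below as other targets ran from a mean of 1.44 FPKM (Foxf2) to 131 FPKM (Myof).

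Of the coactivators, Yap1 (ENSMUSG00000053110) was at 15.1, 16.7 and 15.0 FPKM in SMF 1, 2 and 3, against 16.2, 16.4 and 16.2 FPKM in Control 2, 3 and 4. SMF 1 and SMF 3 lay below every control and SMF 2 above every control, so the groups overlapped. Its fold was -0.06 (SE 0.05, 95% interval -0.17 to 0.06, limma adjusted p = 0.583). As a ratio of FPKM + 1 the interval was 0.887 to 1.04. Wwtr1 (ENSMUSG00000027803), which encodes TAZ, was at 16.6, 18.7 and 18.3 FPKM in SMF libraries, against 17.3, 16.9 and 19.1 in controls. The groups overlapped over most of their range, and the fold was 0.0067 (SE 0.06, interval -0.14 to 0.15, limma adjusted p = 0.968). Yap1 made up 46.6 ± 1.4% of the summed FPKM of the pair in SMF libraries and 47.8 ± 1.77% in controls (SD, n = 3 each), so per length the coactivators were about equally abundant in each group.

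Tead1 (ENSMUSG00000055320), a DNA-binding partner of YAP and TAZ, was the gene of the 10 with the largest fold in size. It was at 7.08, 8.67 and 7.58 FPKM in SMF libraries, against 9.11, 8.28 and 9.42 FPKM in controls. SMF 1 and SMF 3 lay below every control, while SMF 2 lay above Control 3. The fold was -0.18 (SE 0.08, interval -0.36 to -0.0027), with an unadjusted limma p of 0.0474 and an adjusted p of 0.272; limma-voom gave -0.20 with an adjusted p of 0.0622. Tead1 has 13570 bases of exon, the longest of the 10, and long genes were lower in SMF libraries in general. After correction for GC content and length its fold was -0.11 (interval -0.25 to 0.04, limma adjusted p = 0.524). The correction removes a length trend between the groups whatever its source. The part of length in the Tead1 fold was not tested.

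Among the TEAD factors, Tead4 was the most abundant at 12.1 ± 0.58 FPKM in SMF libraries and 12.2 ± 0.39 in controls (SD, n = 3 each). Tead3 was at 3.44 ± 0.21 FPKM in SMF libraries and 3.25 ± 0.5 in controls, and Tead2 at 0.28 ± 0.08 FPKM in SMF libraries and 0.368 ± 0.06 in controls. Tead1 held 30.1 to 35.3% of the summed TEAD FPKM in SMF libraries and 33.7 to 38.9% in controls, ranges that overlap. The relatives of each gene were set beside it after their values were seen.

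**Figure D2:**
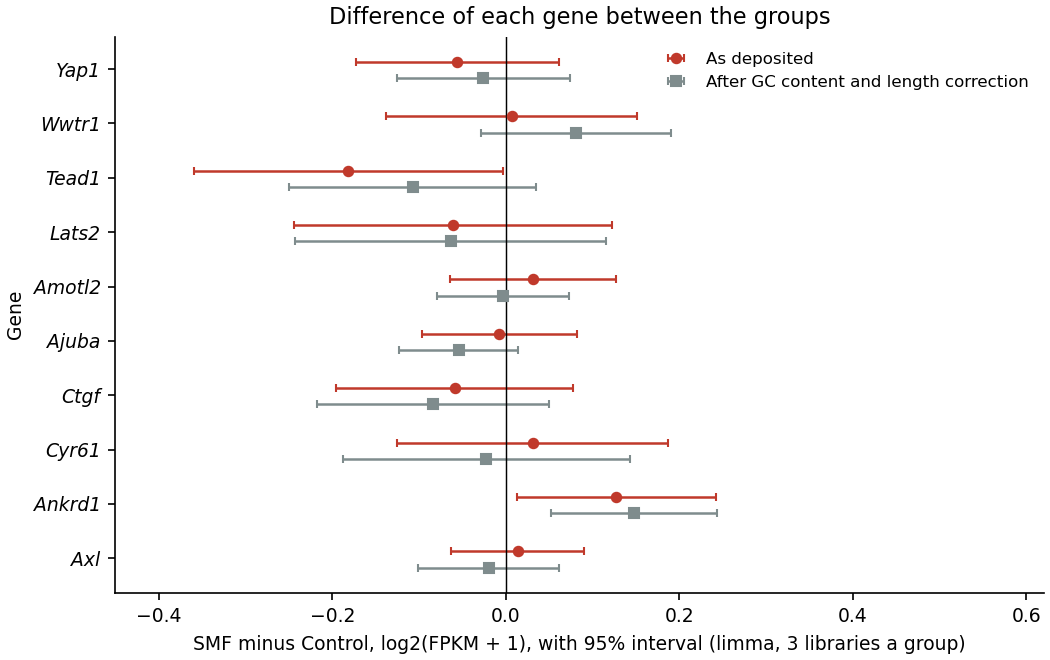
Difference of each gene, SMF minus control on the log2(FPKM + 1) scale, with the 95% interval from limma over 3 libraries a group, as deposited (circles) and after correction for GC content and gene length (squares). The interval of Ankrd1 lies above 0 in both fits, and that of Tead1 lies below 0 only as deposited (-0.36 to -0.0027).

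Lats2 (ENSMUSG00000021959), a kinase that inhibits YAP and TAZ and is itself induced by them, was the least abundant of the 10. It was at 2.57, 3.05 and 3.07 FPKM in SMF libraries, against 3.13, 2.92 and 3.12 in controls. SMF 1 was the lowest library, and the remaining SMF libraries lay within the control range. The fold was -0.06 (SE 0.08, interval -0.24 to 0.12, limma adjusted p = 0.708), the widest interval of the 10 and resting on 278 to 385 reads a library. Its paralog Lats1 was at 7.18 ± 0.7 FPKM in SMF libraries and 8.1 ± 0.17 in controls. The Lats1 groups did not overlap, as for the 12.7% of all genes that were lower without overlap. Lats1 had a fold of -0.16 (limma adjusted p = 0.276), and -0.07 once corrected for GC content and length. Lats2 held 28.8 ± 1.5% of the summed FPKM of the pair in SMF libraries and 27.4 ± 0.67% in controls.

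Amotl2 (ENSMUSG00000032531), an angiomotin that binds YAP and holds it at junctions and actin, was at 43.4, 42.6 and 42.8 FPKM in SMF libraries, against 42.1, 43.9 and 40.1 in controls. The SMF libraries lay within the control range, and the fold was 0.03 (SE 0.04, interval -0.06 to 0.13, limma adjusted p = 0.711). The fold turned below 0 under TPM and quantile scaling and once corrected for GC content and length. Within the angiomotin family, Amotl2 held 78.2 ± 0.96% of the summed FPKM in SMF libraries and 76.2 ± 0.85% in controls. These shares did not overlap between the groups, and no background over all genes was worked out for shares. Amot was at 4.49 ± 0.36 FPKM in SMF libraries and 5.09 ± 0.06 in controls, with groups that did not overlap. Over all genes, 12.7% were lower without overlap. Amotl1 was at 7.48 ± 0.36 FPKM in SMF libraries and 8 ± 0.26 in controls. Amot and Amotl1 are longer, at 8402 and 10064 bases against 6289 for Amotl2. The Amot fold was -0.15, and -0.09 once corrected for GC content and length. The part of length in the shares was not tested.

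Ajuba (ENSMUSG00000022178), a LIM protein that inhibits LATS kinases, was at 71.1, 67.9 and 70.0 FPKM in SMF libraries, against 68.4, 72.8 and 68.9 in controls. SMF 2 was the lowest library and Control 3 the highest, and the groups overlapped. The fold was -0.0073 (SE 0.04, interval -0.1 to 0.08, limma adjusted p = 0.937), and median-of-ratios scaling turned it to 0.0025. Of the related LIM proteins, Limd1 was at 23.8 ± 1.15 FPKM in SMF libraries and 22.4 ± 0.56 in controls, and Wtip at 9.15 ± 0.59 FPKM in SMF libraries and 8.61 ± 1.53 in controls. Ajuba held 67.9 ± 0.87% of their summed FPKM in SMF libraries and 69.3 ± 1.23% in controls.

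Of the secreted matricellular targets, Ctgf (ENSMUSG00000019997), which takes part in fibrosis and wound repair, was at 86.3, 80.6 and 73.5 FPKM in SMF libraries. In controls it was at 85.9, 79.9 and 84.3 FPKM. SMF 1 was the highest and SMF 3 the lowest of the 6 libraries, so the SMF libraries spanned the whole control range. The fold was -0.06 (SE 0.06, interval -0.20 to 0.08, limma adjusted p = 0.619), and without SMF 3 it was 0.0012. Cyr61 (ENSMUSG00000028195), its relative that acts through integrins, was at 41.0, 44.2 and 39.8 FPKM in SMF libraries, against 44.8, 37.6 and 40.0 in controls. Control 2 was highest and Control 3 lowest, and the fold was 0.03 (SE 0.07, interval -0.12 to 0.19, limma adjusted p = 0.831); it turned below 0 under TPM (-0.0020) and once corrected for GC content and length (-0.02). Ctgf and Cyr61 thus showed no difference beyond the spread between libraries. The groups of the readout Ankrd1 did not overlap, as for the 11.0% of all genes that were higher without overlap. Ankrd1 did not pass limma either (adjusted p = 0.245). As ratios of FPKM + 1 the intervals were 0.873 to 1.06 for Ctgf and 0.917 to 1.14 for Cyr61. Once corrected for GC content and length the intervals reached lower, at -0.22 to 0.05 for Ctgf and -0.19 to 0.14 for Cyr61.

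Ankrd1 (ENSMUSG00000024803), an ankyrin repeat protein that works in the nucleus and in muscle sarcomeres, was the most abundant of the 10. It was at 137.5, 146.3 and 143.1 FPKM in SMF libraries, against 135.9, 121.1 and 133.9 FPKM in controls. Every SMF library lay above every control, although SMF 1 and Control 2 were close. The fold was 0.13 (SE 0.05, interval 0.01 to 0.24), a ratio of mean FPKM of 1.09, with an unadjusted limma p of 0.0335 and an adjusted p of 0.245. limma-voom gave 0.13 with an adjusted p of 0.0789, and 0.15 with an adjusted p of 0.0551 once corrected for GC content and length. Over the alternatives tried the adjusted p of Ankrd1 was never under 0.05, and the fold stayed above 0, from 0.05 with quantile normalization to 0.18 with a replicate block and that correction.

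Axl (ENSMUSG00000002602), a receptor tyrosine kinase and YAP target, was at 120.3, 125.2 and 122.1 FPKM in SMF libraries, against 120.0, 120.2 and 123.9 in controls. SMF 2 was the highest library and Control 2 the lowest, and the groups overlapped. The fold was 0.01, with the smallest SE of the 10 (SE 0.03, interval -0.06 to 0.09, limma adjusted p = 0.851). As a ratio of FPKM + 1 the interval was 0.957 to 1.06. The fold turned below 0 under TPM, under quantile scaling and once corrected for GC content and length (interval -0.10 to 0.06). Axl held 96.8 to 97.3% of the summed FPKM of its receptor family in SMF libraries and 96.6 to 97.5% in controls. The related Tyro3 was at 3.76 ± 0.38 FPKM in SMF libraries and 3.58 ± 0.63 in controls, and Mertk was listed at 0 in 5 of 6 libraries. Of the ligands, Gas6 stayed at or under 0.131 FPKM in every library. Pros1, the other ligand, was at 5.18 ± 0.14 FPKM in SMF libraries and 5.81 ± 0.1 in controls. The Pros1 groups did not overlap, as for the 12.7% of all genes that were lower without overlap. Pros1 had a fold of -0.14 (limma adjusted p = 0.238), and -0.07 once corrected for GC content and length.

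Gene length moved with the folds of all genes, and the 10 genes differ in length from 2019 bases (Cyr61) to 13570 (Tead1). Among the genes tested, split into 5 equal classes by length, the shortest class (48 to 2113 bases) had a median fold of 0.07 and the longest (7339 to 41619 bases) a median of -0.07. Tead1 and Yap1 (9257 bases) fall in the longest class, and Cyr61 in the shortest. Ankrd1 falls in the next shortest class (2114 to 3466 bases), whose median fold was 0.02, and its fold was as large once corrected for GC content and length, at 0.15 (interval 0.05 to 0.24, limma adjusted p = 0.264). For Wwtr1 the correction gave 0.08 (interval -0.03 to 0.19), and for Yap1 -0.03. After correction the median of the 10 genes was -0.02, against 0.0002 for all genes corrected.

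**Figure D3:**
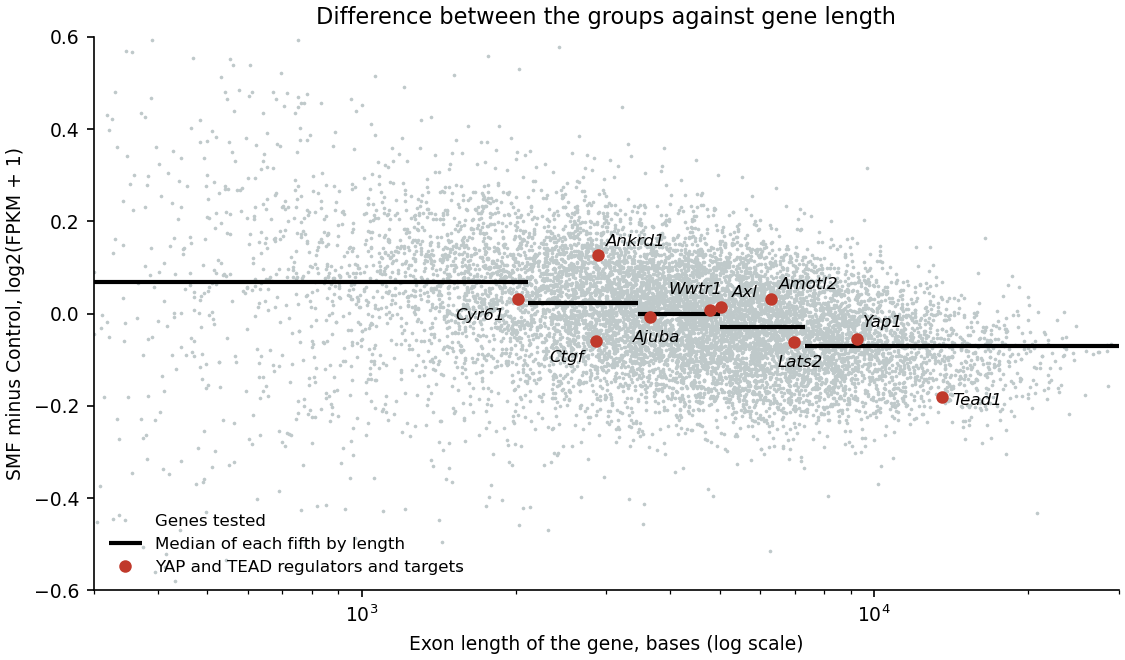
Difference between the groups, SMF minus control on the log2(FPKM + 1) scale, against exon length on a log axis, with all genes tested in grey, the median of each of 5 length classes as a black line and the 10 genes in red. The median is 0.07 in the shortest class and -0.07 in the longest, where Tead1 lies at -0.18; 294 genes lie outside the axes.

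The wider pathway was read from 5 lists of 70 genes, of which 54 passed the filter of at least 1 FPKM in at least 3 libraries. limma called 0 of the 54 with adjustment. At an unadjusted limma p under 0.05, 3 Hippo genes were higher and 4 lower, 1 other target was higher and 2 lower, 1 CCN or TAM gene was higher and 1 lower, and 2 cytoskeletal genes were higher and 1 lower, with 0 of 10 among the TEAD partners. Over all genes this was 9.41% higher and 8.57% lower, or 18.0% in all. Of the Hippo kinases and their upstream regulators, 16 of 18 were tested, with 6 folds above 0 and 10 below and a median of -0.02, against -0.0095 over all genes. In this list 5 genes were lower without overlap between the groups and 2 were higher, against 12.7% lower and 11.0% higher over all genes. Wwc1 (KIBRA), a scaffold that activates LATS, was the most abundant at 61.0 ± 0.79 FPKM in SMF libraries and 56.9 ± 0.48 in controls (fold 0.10, limma adjusted p = 0.203; 0.05 once corrected for GC content and length). Mob1a, a cofactor of LATS, was at 37.0 ± 1.59 FPKM in SMF libraries and 39.6 ± 0.51 in controls (fold -0.10, limma adjusted p = 0.274; -0.03 once corrected). Mob1b, a paralog of Mob1a, was at 2.58, 3.05 and 2.85 FPKM in SMF libraries, against 3.54, 3.53 and 3.41 in controls. Taok1, a kinase upstream of the Hippo kinases, was at 5.79, 7.63 and 7.03 FPKM in SMF libraries, against 7.715, 7.78 and 8.67 in controls. limma-voom called both lower (adjusted p = 0.0185 and 0.0486), with genes of 15033 and 12421 bases. Once corrected for GC content and length neither passed limma-voom (adjusted p = 0.458 and 0.65), and the median of the list was 0.02. The part of length in these calls was not tested.

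TEAD paralogs, cofactors and YAP partners had 10 tested genes, 5 with a fold above 0 and 5 below, and a median of 0.0080. Csnk1d and Csnk1e, casein kinases that help mark YAP for degradation, were at 54.3 ± 1.63 and 26.2 ± 0.43 FPKM in SMF libraries, against 53.3 ± 0.98 and 25.1 ± 0.37 in controls. Vgll4, which competes with YAP for TEAD, was at 12.7 ± 0.02 FPKM in SMF libraries and 13.4 ± 1.21 in controls. No gene of this list passed limma-voom.

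Other genes commonly listed as YAP and TAZ targets had 14 of 16 genes tested, with 5 folds above 0 and 9 below and a median of -0.05 (-0.01 once corrected for GC content and length). Myof, a membrane repair protein, was the most abundant at 127.7 ± 6.27 FPKM in SMF libraries and 134.4 ± 0.15 in controls (fold -0.07, limma adjusted p = 0.366; -0.0070 once corrected). Gadd45a, a growth arrest gene that is also induced by stress and p53, was at 46.1, 46.4 and 41.6 FPKM in SMF libraries, against 36.6, 37.9 and 38.3 in controls. Its fold was 0.24 (limma adjusted p = 0.147); limma-voom called it higher (adjusted p = 0.0225), and not once corrected for GC content and length, where its limma-voom fold was 0.13 (adjusted p = 0.308). Igfbp3, which binds insulin-like growth factors, was at 3.97, 4.05 and 3.89 FPKM in SMF libraries, against 5.18, 4.93 and 4.99 in controls. Its fold was -0.28 (limma adjusted p = 0.147 and limma-voom adjusted p = 0.0774). Once corrected for GC content and length the Igfbp3 fold was -0.32 in limma (adjusted p = 0.22) and -0.38 in limma-voom (adjusted p = 0.0779). Gadd45a and Igfbp3 lay on opposite sides, and they were the pair of tested genes in the list whose groups did not overlap, 1 higher and 1 lower of 14, against 11.0% higher and 12.7% lower over all genes. Igfbp3 was named after its values were seen, as were the genes named for limma-voom calls.

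**Figure D4:**
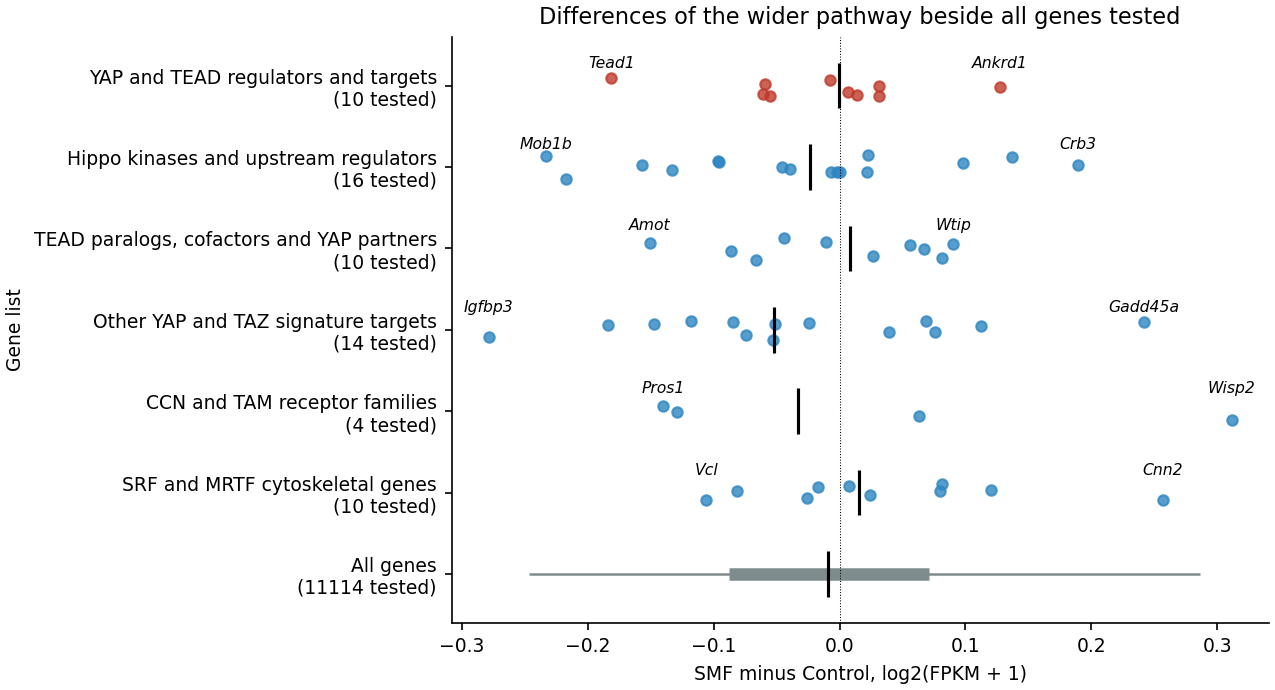
Difference of each tested gene, SMF minus control on the log2(FPKM + 1) scale, by list, with a black line at each median and the lowest and highest gene named. The grey bar spans the middle 50% and the grey line the middle 95% of all 11114 genes; the 10 YAP and TEAD genes run from -0.18 (Tead1) to 0.13 (Ankrd1) with a median of -0.0003.

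Of the CCN relatives, Wisp1 was at 10.4 ± 0.87 FPKM in SMF libraries and 11.4 ± 0.48 in controls (fold -0.13, limma adjusted p = 0.338). Wisp2 was at 5.13 ± 0.99 FPKM in SMF libraries and 3.91 ± 0.46 in controls (fold 0.31, limma adjusted p = 0.246). Once corrected for GC content and length these folds were -0.12 for Wisp1 and 0.21 for Wisp2. Ctgf held 58.3 ± 1.88% of the summed FPKM of these 4 CCN genes in SMF libraries and 59.8 ± 1.2% in controls. SRF and MRTF, which share targets and actin inputs with YAP, were read from 15 cytoskeletal genes, of which 10 were tested, with 6 folds above 0 and 4 below (median 0.02; -0.02 under TPM). Actb was at 919.4 ± 7.79 FPKM in SMF libraries and 904.3 ± 11.7 in controls, and Flna, a filamin that cross-links actin, at 166.4 ± 3.12 FPKM in SMF libraries and 165.5 ± 3.09 in controls. Cnn2, a calponin that binds actin, was the 1 gene of this list called by limma-voom, at 41.9 ± 2.14 FPKM in SMF libraries and 35.0 ± 3.93 in controls (fold 0.26, limma-voom adjusted p = 0.0204, limma adjusted p = 0.18). Once corrected for GC content and length its limma-voom fold was 0.20, against 0.27 uncorrected, and it did not pass (adjusted p = 0.111). In all, limma-voom called 4 of the 54 pathway genes, Mob1b and Taok1 lower and Gadd45a and Cnn2 higher, against 4.59% of all genes.

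The genes with values most like those of Ankrd1 over the 6 libraries, by Pearson's r of log2(FPKM + 1) among 7113 genes with a mean of at least 5 FPKM, were Prelid3b (0.98), Kcmf1 (0.97) and Cys1 (0.97). For Yap1 they were Pmaip1 (0.99), Usp6nl (0.98) and Kmt2b (0.98). With 6 points such values are common: 38 genes had r over 0.9 with Ankrd1 and 162 with Yap1.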

How the data were processed

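Poly(A)-enriched RNA of 6 AML12 libraries was sequenced by the authors, who deposited 1 table of FPKM per library. HISAT2 2.1.0, Bowtie2 2.2.3 and build GRCm39 are named, without their roles, per the submitters' processing notes. The counting tool, annotation, strand use and handling of multi-mapped reads are not given in the sources used. Group and replicate number came from the sample titles. Symbols, exon lengths and GC content came from GENCODE M21 (GRCm38), which named 23529 of 23886 identifiers.

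SMF and control libraries were compared with limma 3.58.1 (R 4.3.3), fitted with a mean-variance trend to log2(FPKM + 1) over the 11114 genes with at least 1 FPKM in at least 3 libraries, two-sided, with Benjamini-Hochberg adjustment over all of them and a threshold of 0.05. Such folds understate changes of low genes. FPKM times annotated exon length gave whole reads within 0.02 for 98.08% of genes above 0 with an annotated length. For 674 more genes the length was searched for, and limma-voom was run on these reads. Alternatives were pseudocounts of 0.1 and 5, other filters, TPM, median-of-ratios and quantile scaling, no trend, a loess correction for GC content and length (span 0.3), leaving out each library, and a replicate block. The corrected limma-voom fit was added after seeing the data. Uncorrected limma and limma-voom were run on simulated reads with known folds. The added spread between libraries was the same for every gene, with no trend in GC content or length between the groups. The simulation therefore does not measure their error rates in these data. The 10 genes and all gene lists were chosen with earlier results of these data known. All 10 genes were named. A list's genes were named if past the threshold, and its 2 most abundant genes where none were. Vgll4, family relatives and genes called only by limma-voom were named after their values were seen. Figures were drawn with matplotlib 3.10.9.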

Additional observations from a re-analysis of the deposited data

How the results depend on the processing

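At a threshold of 0.05 no alternative fit called any of the 10 genes, and limma called 0 at a threshold of 0.1. At 0.1 limma-voom would pass Tead1 (adjusted p = 0.0622) and Ankrd1 (0.0789), and corrected limma-voom Ankrd1 (0.0551). In every alternative fit the folds of Yap1, Tead1 and Ankrd1 kept their sign. Leaving out 1 library gave -0.10 to -0.03 for Yap1, -0.25 to -0.12 for Tead1 and 0.08 to 0.16 for Ankrd1. Each of the other folds changed sign in at least 1 alternative fit, with causes not tested. Ctgf did so in 1 fit only (0.0012). Nearness to 0 does not set these genes apart from Yap1. As deposited, the folds of Ctgf (-0.0589) and Lats2 (-0.0610) were larger in size than that of Yap1 (-0.0556). Leaving out 1 library gave -0.028 to 0.058 for Wwtr1, -0.11 to 0.0012 for Ctgf, -0.026 to 0.099 for Cyr61, -0.0007 to 0.062 for Amotl2, -0.094 to 0.0008 for Lats2, -0.024 to 0.02 for Ajuba and -0.0019 to 0.029 for Axl. Rescaling to TPM gave -0.0264 for Wwtr1, -0.002 for Cyr61, -0.0018 for Amotl2 and -0.0202 for Axl. Quantile normalization gave -0.0043 for Amotl2 and -0.0479 for Axl, and median-of-ratios scaling 0.0025 for Ajuba. The GC content and length correction gave -0.0225 for Cyr61, -0.0032 for Amotl2 and -0.0196 for Axl, and with limma-voom -0.0272, -0.0071 and -0.0229.

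Replicate numbers 2 and 3 occur in both groups, but nothing says that they pair libraries, and deviations from the group means correlated by 0.058 and 0.046 for the same-numbered pairs. The fit with the replicate block, which leaves 1 residual degree of freedom before pooling over genes, called 19 genes in all and none of the 10. With the block, Amotl2 was at -0.0077 and Lats2 at 0.0126. With the block and the GC content and length correction Amotl2 was at -0.0236, Lats2 at 0.0172 and Cyr61 at -0.0087.

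Of the pathway genes, limma-voom called 4 where limma called 0. Over all genes limma called 0 and limma-voom 510, or 86 once corrected for GC content and length. The filter at 5 FPKM, which leaves Lats2 out, called 8 genes. List medians moved by more than the spread between libraries as follows. Once corrected for GC content and length, in limma and in limma-voom, the Hippo kinase list was at 0.0152 and 0.021, other targets at -0.0121 and -0.0073, and SRF and MRTF genes at -0.0111 and -0.0109. The replicate block gave -0.0706 for TEAD partners and 0.023 for CCN and TAM genes. Block and correction together gave 0.038 for Hippo kinases, -0.0921 for TEAD partners, -0.0048 for other targets, 0.0202 for CCN and TAM genes and -0.0072 for SRF and MRTF genes. SRF and MRTF genes were at -0.0184 under TPM and -0.0215 with quantile normalization, and CCN and TAM genes at -0.1349 with the filter at 5 FPKM. The median moved without Control 4 for TEAD partners and without SMF 1 for CCN and TAM genes; over all 6 libraries left out in turn, the medians were -0.0353 to 0.0373 and -0.0622 to 0.0327. Depth limits Lats2 most, with 278 reads in its lowest library.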
